A study of Mus musculus with 2 samples.

Results

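The 7 microRNA genes described here are Mir200a, Mir200b, Mir200c, Mir141, Mir429, Mir203 and Mir205, which are typical of epithelia. They were chosen by symbol in GENCODE M21 and not by any measured value, and they are 7 of the 2202 microRNA genes in the count tables. The tables come from microRNA-seq of total RNA from adrenal gland, an endocrine organ with a steroid-producing cortex around a catecholamine-producing medulla, in wild-type C57BL/6J mice. There are 2 libraries in a single group, biological replicate 2 and biological replicate 1, with no treatment and no second genotype. Both carry the same donor identifier, and nothing in the labels states that they came from separate animals, so every p-value below measures only how these libraries differ, which may be technical. The labels call the animals female in one field and leave sex uncollected in another, and age is unknown.

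Members of the miR-200 family are known to repress Zeb1 and Zeb2, transcription factors that switch off E-cadherin and other epithelial genes, and the ZEB proteins repress the miR-200 genes in return. miR-203 is known from the upper layers of the epidermis, where it represses p63, a factor that keeps basal cells proliferating. miR-205 is known from the basal cells of stratified and glandular epithelia. The adrenal cortex arises from mesoderm and the medulla from neural crest, and vessels, nerves and a connective tissue capsule run through and around them. In bulk tissue, fewer cells of a type and less RNA per cell cannot be told apart.

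The mature sequences show why the family falls into a pair of target groups. They are printed 5′ to 3′ from RefSeq's table on GRCm38.p6, which matched all 7 genes, with the seed, bases 2 to 8, in capitals. For the miR-200 family and miR-203 the 3p arm is shown and for miR-205 the 5p arm, the arms best known as active.
miR-200b-3p: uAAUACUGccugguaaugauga
miR-200c-3p: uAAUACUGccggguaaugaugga
miR-429-3p: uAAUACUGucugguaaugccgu
miR-200a-3p: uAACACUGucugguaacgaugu
miR-141-3p: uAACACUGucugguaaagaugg
miR-203-3p: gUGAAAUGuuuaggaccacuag
miR-205-5p: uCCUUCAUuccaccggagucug
Mir200b, Mir200c and Mir429 share the seed AAUACUG, and Mir200a and Mir141 share AACACUG. Counted from the 5′ end, the substitution between the seed groups is U4C, from miR-200b-3p to miR-200a-3p. miR-203-3p and miR-205-5p have seeds of their own.

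Both seeds occur in both genomic clusters. On chromosome 4 (mm10, minus strand) lie Mir200b at 156055681-156055750, Mir200a at 156054896-156054985 and Mir429 at 156053905-156053987, within 1846 bp. All of them lie in introns of Ttll10, a protein-coding gene on the same strand. Mir429 also overlaps an exon of the noncoding gene Gm13648, and Mir200a and Mir200b lie in its introns. On chromosome 6 (minus strand) lie Mir200c at 124718322-124718390 and Mir141 at 124717914-124717985, 336 bp apart, in an intron of the noncoding gene Gm15884. Mir141 also overlaps an exon of Gm29008 on the same strand. Mir203 stands alone on chromosome 12 (plus strand) at 112130880-112130955, 3321 bp from Aspg, and Mir205 lies in an exon of the long noncoding RNA gene 4631405K08Rik on chromosome 1 (minus strand) at 193507463-193507530. None of the mature arms occurs in a second of the 2202 annotated hairpins, exactly or with 1 mismatch. The closest pairs, miR-200b-3p with miR-200c-3p and miR-200a-3p with miR-141-3p, differ at 2 bases each. The differences of the pair miR-200a-3p and miR-141-3p are C17A and U22G, so their first 16 bases are identical, and a read no longer than that could not be placed on either.

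Replicate 2 held 6570375 counts on the strand of a microRNA gene, of 14457994 reads, and replicate 1 held 9137907, of 18743064 reads. Levels are given as CPM, which are sense-strand counts per 1000000 sense-strand counts of all microRNA genes in the library. A count is for a whole hairpin, so the arms are not separated, and it is not divided by hairpin length (68 to 90 bases), because a read is a whole short RNA. How readily an RNA ligates to adapters also varies with its sequence, so ratios between genes are less sure than ratios of a gene between libraries. All intervals are exact 95% intervals that cover counting error only. No microRNA on the lists used is made by adrenal cells alone. Mir375, known from neuroendocrine cells such as those of the medulla, stood at 48617 CPM in replicate 2 and 50274 CPM in replicate 1.

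Mir203 stood far above the rest of the group. It had 4522 counts in replicate 2, or 688 CPM (interval 668 to 709), and 6197 counts in replicate 1, or 678 CPM (661 to 695). Its mean was 683 ± 7.13 CPM (SD, n = 2), and it ranked 94th of 2202 genes in replicate 2 and 90th in replicate 1. It held 92.8% of the counts of the 7 genes in replicate 2 (interval 92.1 to 93.5) and 93.2% in replicate 1 (92.5 to 93.8). It exceeded the whole miR-200 family 13.1-fold in replicate 2 and 13.8-fold in replicate 1.

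The miR-200 family was low but was read in both libraries. Its 5 genes summed to 346 counts in replicate 2, or 52.7 CPM (interval 47.3 to 58.5), and to 450 counts in replicate 1, or 49.2 CPM (44.8 to 54.0). Mir200c, which represses Zeb1 and Zeb2 through the seed AAUACUG, led the family. It had 137 counts (20.9 CPM, interval 17.5 to 24.6) in replicate 2 and 178 counts (19.5 CPM, 16.7 to 22.6) in replicate 1. Mir200b, which has the same seed, had 131 counts (19.9 CPM, 16.7 to 23.7) in replicate 2 and 116 counts (12.7 CPM, 10.5 to 15.2) in replicate 1. The libraries therefore lay close together for Mir200c and apart for Mir200b. Mir200c was higher within each library, by 1.05-fold in replicate 2 and by 1.53-fold in replicate 1, where the counting intervals did not overlap. Across libraries the ranges of these genes overlapped, since Mir200b in replicate 2 lay above Mir200c in replicate 1, so their order is not settled.

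Mir429, the third gene with that seed, had 44 counts (6.70 CPM, interval 4.87 to 8.99) in replicate 2 and 101 counts (11.1 CPM, 9.00 to 13.4) in replicate 1. It lay below Mir200b in both libraries, by 2.98-fold in replicate 2 and by 1.15-fold in replicate 1, where their counting intervals overlapped. Mir141, the chromosome 6 gene with the seed AACACUG, had 26 counts (3.96 CPM, 2.58 to 5.80) in replicate 2 and 31 counts (3.39 CPM, 2.31 to 4.82) in replicate 1. Mir200a, its counterpart on chromosome 4, had 8 counts (1.22 CPM, 0.526 to 2.40) in replicate 2 and 24 counts (2.63 CPM, 1.68 to 3.91) in replicate 1. In replicate 1 the intervals of Mir141 and Mir200a overlapped, while in replicate 2 they did not.

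Mir205 was at the edge of detection, with 3 counts in replicate 2 (0.457 CPM, interval 0.0942 to 1.33) and 5 counts in replicate 1 (0.547 CPM, 0.178 to 1.28). A floor was set at 3 counts, and the replicate 2 value sits at that floor, 0.457 CPM. Read as at least 10 counts in both libraries, 5 of the 7 genes were detected, all but Mir200a and Mir205. Apart from Mir200c and Mir200b, the per-library levels of genes next to each other in the order Mir203, Mir200c, Mir200b, Mir429, Mir141, Mir200a, Mir205 did not overlap.

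**Figure D1:**
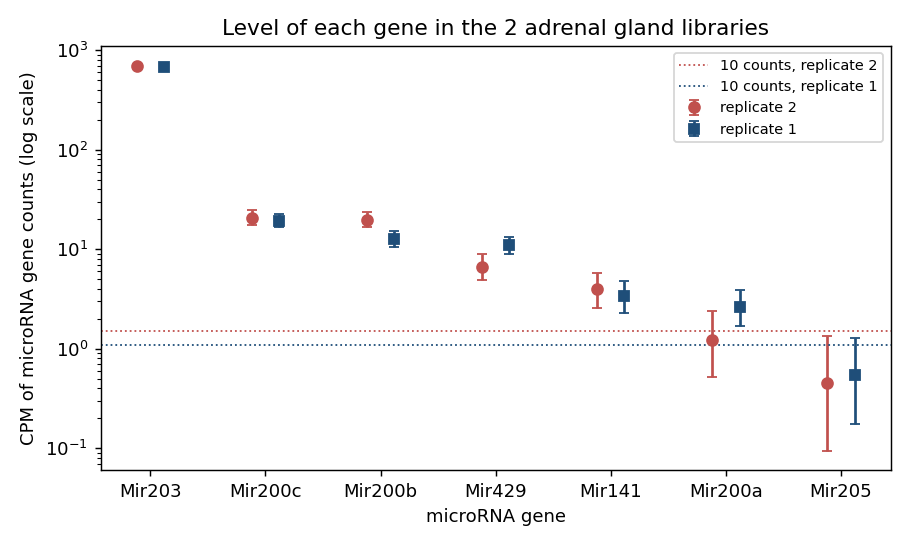
CPM of each gene (log scale) in replicate 2 (circles) and replicate 1 (squares), with exact 95% Poisson intervals; dotted lines mark 10 counts in each library. Mir203 lies at 688 and 678 CPM, the miR-200 genes between 1.22 and 20.9 CPM, and Mir205 below both lines.

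**Figure D2:**
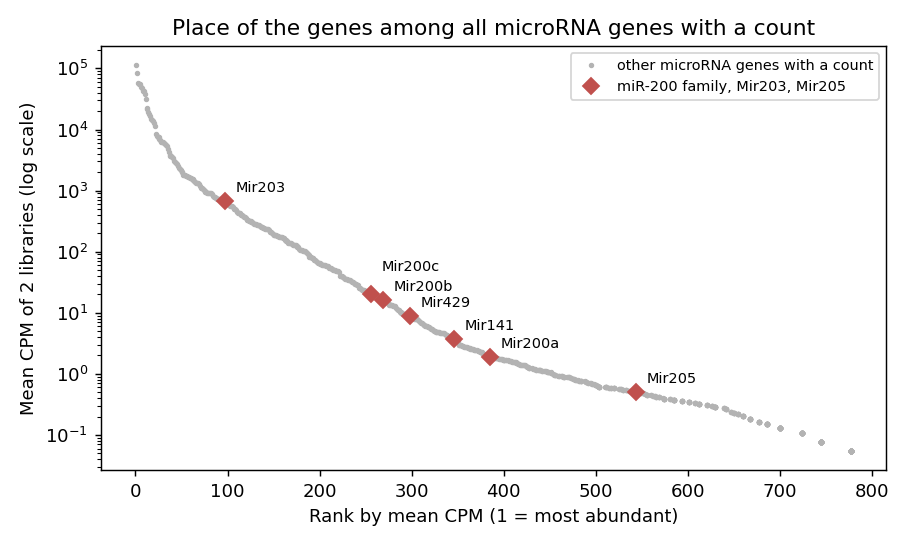
Mean CPM of the 2 libraries (log scale) against rank for every microRNA gene with a count; diamonds mark the 7 genes. Mir203 ranks 97th, Mir200c 256th, Mir200b 269th, Mir429 298th, Mir141 346th, Mir200a 385th and Mir205 544th.

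By mean level, Mir203 ranked 97th, Mir200c 256th and Mir205 544th, with the other miR-200 genes between Mir200c and Mir205. The genes nearest in level, by Euclidean distance of log2(CPM + 1) over the 2 libraries, are a description of level alone. For Mir203 they were Mirlet7c-1 (688 and 713 CPM in replicates 2 and 1), Mir299a (739 and 635 CPM) and Mir181c (651 and 740 CPM), at distances of 0.0721, 0.141 and 0.149. Mirlet7c-1 is made from near-identical loci, so its count is uncertain. The same limit holds for any other gene named here, such as Mir196a-1, that has a near-identical copy. Mir200c was nearest to Mir196a-1, Mir184 and Mir493, at distances of 0.0881, 0.136 and 0.153. Mir200b was nearest to Mir33, Mir1947 and Mir7688, at distances of 0.159, 0.221 and 0.224. Of these, Mir184 is known from cornea and epidermis.

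The 2 clusters contributed like amounts to the family. The chromosome 4 cluster summed to 183 counts (27.9 CPM) in replicate 2 and 241 counts (26.4 CPM) in replicate 1. The chromosome 6 cluster summed to 163 counts (24.8 CPM) in replicate 2 and 209 counts (22.9 CPM) in replicate 1. The ratio of chromosome 4 to chromosome 6 counts was 1.12 (interval 0.904 to 1.40) in replicate 2 and 1.15 (0.954 to 1.39) in replicate 1, so the clusters did not differ beyond counting error in either library.

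By seed the family was uneven. Genes with the seed AAUACUG held 90.2% of its counts in replicate 2 and 87.8% in replicate 1, at 312 and 395 counts, while the AACACUG genes had 34 counts in replicate 2 and 55 in replicate 1. The ratio between the seed groups was 9.18 (interval 6.43 to 13.5) in replicate 2 and 7.18 (5.41 to 9.70) in replicate 1. The same tilt was present in each cluster. Mir200c exceeded Mir141 5.27-fold (3.45 to 8.35) in replicate 2 and 5.74-fold (3.90 to 8.70) in replicate 1, and Mir200b exceeded Mir200a 16.4-fold (8.07 to 38.7) in replicate 2 and 4.83-fold (3.09 to 7.85) in replicate 1.

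Within the chromosome 4 cluster the balance of genes was not the same in the libraries. Ratios within a library do not depend on how the libraries are scaled. Mir200b to Mir429 stood at 2.98 (interval 2.10 to 4.29) in replicate 2 and 1.15 (0.872 to 1.51) in replicate 1, a ratio of ratios of 2.59 (conditional interval 1.65 to 4.10). For Mir200b to Mir200a the ratio of ratios was 3.39 (1.40 to 9.04), resting on 8 and 24 counts of Mir200a. Both intervals lie above 1, so Mir200b took a larger part of the cluster in replicate 2 than in replicate 1, beyond counting error. They share the Mir200b counts and are not adjusted for the number of ratios compared. Differences beyond counting error were common between these libraries, at 56.1% of 426 tested genes. For Mir429 to Mir200a the ratio of ratios was 1.31 (0.516 to 3.63) and for Mir200c to Mir141 0.918 (0.501 to 1.69). These last intervals include 1 and allow differences of more than 1.5-fold.

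**Figure D3:**
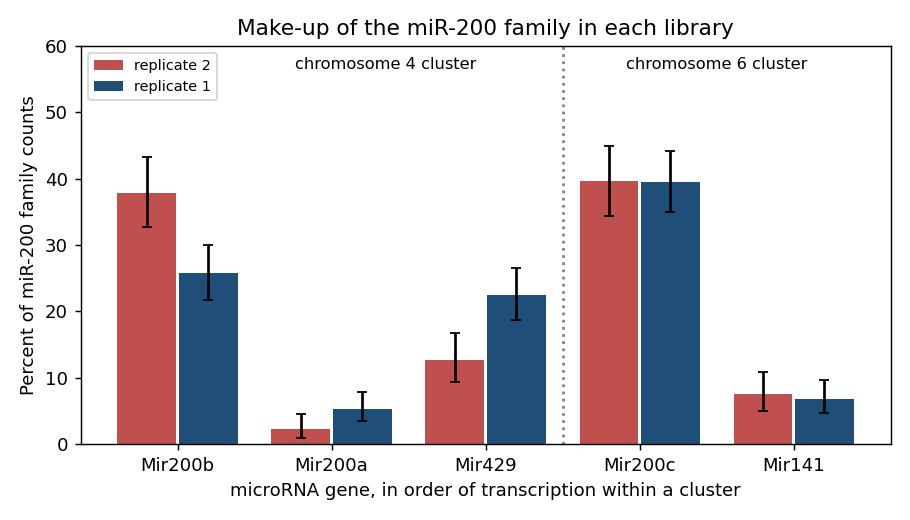
Percent of all miR-200 family counts held by each gene in replicate 2 (red) and replicate 1 (blue), with exact 95% binomial intervals, grouped by cluster. Mir200b holds 37.9% in replicate 2 and 25.8% in replicate 1, Mir429 12.7% and 22.4%, and Mir200c 39.6% in both.

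Set against each other library to library, with the exact two-sided binomial test and Benjamini-Hochberg adjustment over all 426 genes with at least 20 counts, 56.1% of tested genes differed (239 genes at an adjusted p under 0.05). Of the 7 genes 6 were tested and 3 passed, 1 higher and 2 lower in replicate 2, a share like that background, of which 25.8% were higher and 30.3% lower. The background itself depends on level, at 33.5% of 242 tested genes under a mean of 100 CPM and 80.7% of 109 genes between 100 and 1000 CPM. The test knows counting error only, so at high counts small differences pass it.

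Mir200b was 1.46-fold higher in replicate 2 (log2 ratio 0.55, interval 0.18 to 0.92, adjusted p = 0.0067, binomial exact test). Mir429 was lower there, with a log2 ratio of -0.82 (-1.37 to -0.30, adjusted p = 0.0031 by the same exact test). These genes of a single cluster thus passed in opposite directions. So did genes of the cluster of Mir183, Mir182 and Mir96, with log2 ratios of 0.16, -0.39 and -1.92. Of all tested genes, 70.0% had a log2 ratio smaller in size than that of Mir200b, and 81.9% one smaller than that of Mir429. Mir200a had a log2 ratio of -1.15 (-2.58 to -0.01) with an unadjusted p of 0.048 and an adjusted p of 0.081 in the exact test, and it did not pass.

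Mir203 had a log2 ratio of -0.08 (interval -0.14 to -0.03), which passed the test (adjusted p = 0.0081, exact binomial) under scaling by TMM, edgeR's trimmed mean of M-values, but turned to 0.02 with an adjusted p of 0.57 when the libraries were scaled by total counts. Its level in replicate 2 was 0.945 times that in replicate 1 with TMM, a smaller difference than the median of 0.23 on the log2 scale, in either direction, over the 109 tested genes between 100 and 1000 CPM. Mir200c had a log2 ratio of -0.003 (-0.34 to 0.32) and Mir141 of 0.12 (-0.69 to 0.92), with adjusted p-values of 1.0 and 0.88 in the exact test. These intervals allow a Mir200c level from 0.79 to 1.25 times and a Mir141 level from 0.62 to 1.89 times that in replicate 1. The 3 and 5 counts of Mir205 give a fold of 0.82 (0.12 to 3.99), and it was not tested. Over the 6 tested genes the median log2 ratio was -0.04 and the median size 0.34, beside -0.03 and 0.29 over all 426. Over the 242 tested genes under a mean of 100 CPM, where all of the 6 but Mir203 lie, the median size was 0.38.

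**Figure D4:**
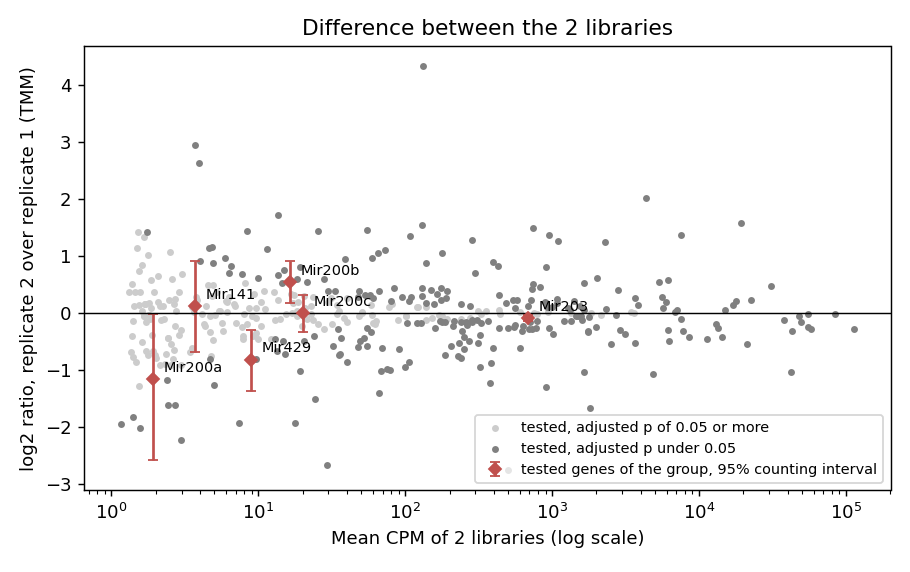
log2 ratio of replicate 2 over replicate 1 (TMM scaling) against mean CPM (log scale) for 426 tested genes in grey, darker where the adjusted p was under 0.05, with 6 of the 7 genes as diamonds and 95% counting intervals. Mir200b lies at 0.55, Mir429 at -0.82 and Mir203 at -0.08.

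Other microRNAs known from epithelia were more abundant together than the miR-200 family. Of the 14 listed, 10 reached 10 counts in each library, while Mir449b was not read in either. They summed to 1916 CPM in replicate 2 and 1208 CPM in replicate 1. Set against the sum of the 7 genes, which includes Mir203, that is 2.58 times in replicate 2 and 1.66 times in replicate 1. Mir31, known from epidermis and hair follicle, led them at 1104 CPM in replicate 2 and 367 CPM in replicate 1. Mir182 followed at 291 and 355 CPM and Mir183 at 260 and 217 CPM in replicates 2 and 1, then Mir224 at 117 and 94.8 CPM. Mir96, which lies in a cluster with Mir183 and Mir182 known from sensory epithelia, was far lower, at 7.76 CPM in replicate 2 and 27.6 CPM in replicate 1. Mir449a, known from multiciliated cells, had 39.0 CPM in replicate 2 and 40.6 CPM in replicate 1. Mir449c was far lower, at 0.304 CPM in replicate 2 and 0.219 CPM in replicate 1, and Mir449b was not read. Of the 10 tested genes of the list 3 were higher in replicate 2, 3 were lower and 4 did not pass, a share like the 56.1% called over all tested genes, with a median log2 ratio of -0.18 beside -0.03 over all tested genes.

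The lists of other tissues place the family's level. The kidney list, for the organ next to the gland and one whose tubules are rich in the miR-200 family, had 3 of 5 genes detected and summed to 118 CPM in replicate 2 and 112 CPM in replicate 1, led by Mir204 at 54.3 and 41.4 CPM. That sum is 2.25 times the miR-200 family in replicate 2 and 2.28 times in replicate 1. Mir192, Mir194-1, Mir194-2 and Mir215 stand on both the kidney and the other epithelial list. Reads with several alignments were not counted, so genes with near-identical copies can read too low. The list sums, their ratios to the family and the counts of detected genes share this limit. Mir122, the hepatocyte microRNA, had 71.5 CPM in replicate 2 and 128 CPM in replicate 1. Mir126a of endothelium had 54325 and 61677 CPM in replicates 2 and 1, about 1032 and 1252 times the miR-200 family. The mesenchymal list, led by Mir143, summed to 15034 CPM in replicate 2 and 18914 CPM in replicate 1, with 5 of 6 genes detected. The neuroendocrine list, with 4 of 4 genes detected, was close to the endothelial level.

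Genes of the leukocyte list differed between the libraries in both directions, while those of the erythroid list all had positive log2 ratios. The leukocyte list, led by Mir342, had 5 of 5 genes detected and summed to 2163 CPM in replicate 2 and 1990 CPM in replicate 1. Mir342 (log2 ratio 0.45) and Mir150 (0.32) were higher in replicate 2 and Mir142 (-0.95), Mir223 (-0.73) and Mir155 (-0.12) were lower. The erythroid list had 3 of 3 genes detected and summed to 295 CPM in replicate 2 and 144 CPM in replicate 1, led by Mir451a at 245 and 110 CPM. Mir451a and Mir486 were higher in replicate 2, while Mir144 had a log2 ratio of 0.13 and did not pass. Such calls are common in the background, at 56.1% of all tested genes. The share is 80.7% for a mean between 100 and 1000 CPM, where Mir451a and every gene of the leukocyte list lie. Under a mean of 100 CPM, where Mir486 and Mir144 lie, it is 33.5%. The striated muscle list was near the edge of detection, at 6.39 CPM in replicate 2 and 5.36 CPM in replicate 1, led by Mir1b, with Mir1a-1, Mir133a-1, Mir208a and Mir208b at 0 in both. Mir1a-1 and Mir133a-1 have identical copies elsewhere, so their levels cannot be read here. The part of kidney, blood or any other tissue in the levels of the 7 genes, or in the difference between libraries, was not tested.

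**Figure D5:**
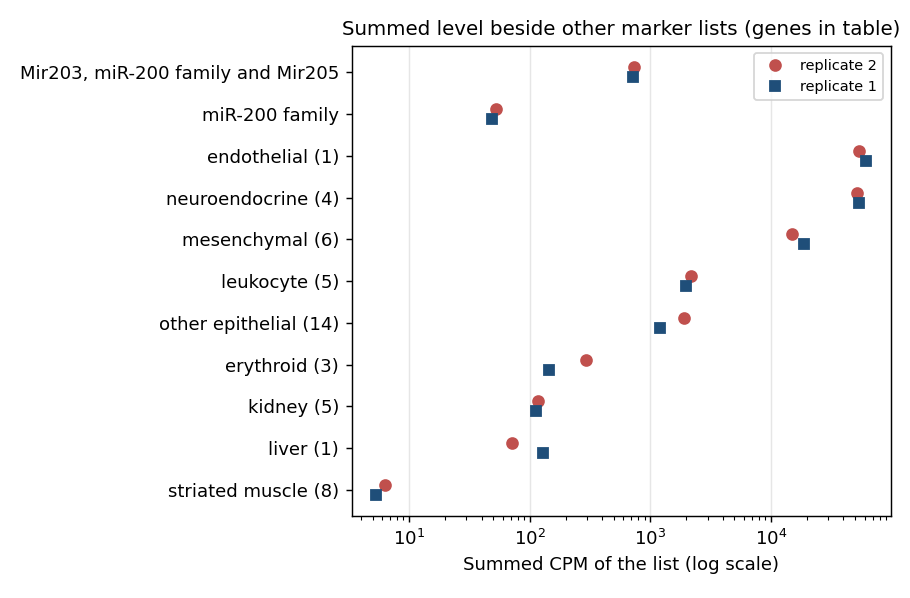
Summed CPM (log scale) of the 7 genes, of the miR-200 family and of each marker list in replicate 2 (circles) and replicate 1 (squares), with the number of genes in the table in brackets. The miR-200 family, at 52.7 and 49.2 CPM, lies below every list shown but striated muscle. The 7 genes together, at 741 and 728 CPM, lie above the erythroid, kidney, liver and striated muscle lists and below the others.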

How the data were processed

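For each library the authors deposited raw counts of reads over 2202 microRNA genes, on mm10 with GENCODE M21 per the descriptions deposited beside the tables. Adapter trimming is named in the labels' protocols, while the aligner and counter were not given in the sources used here. The tables have columns that, by their values, hold counts on either strand, the strand of the gene and the opposite strand. Reads in no gene, unmapped, ambiguous between genes or with several alignments fill 4 rows that were left out of library sizes. These rows held 54.6% of the reads of replicate 2 and 51.2% of those of replicate 1, and reads with several alignments alone held 36.0% and 35.9%.

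All 2202 identifiers matched GENCODE M21, and sequences came from RefSeq (GRCm38.p6, the same build as mm10). With 1 group, edgeR's quasi-likelihood test has no contrast. The libraries were compared with an exact two-sided binomial test against the ratio of TMM-scaled sizes (edgeR 4.0.16, R 4.3.3, scipy 1.17.1), Benjamini-Hochberg adjusted at 0.05. The test was run on simulated Poisson counts with the same library sizes. Those counts hold counting error only, so that run says nothing about other variation between libraries. Log2 ratios are replicate 2 over replicate 1 with 0.5 counts added. TMM shifts them by -0.10 relative to total counts. Intervals are exact Poisson, Clopper-Pearson or, for ratios of ratios, conditional. Alternatives were other scalings (DESeq2 1.42.0 size factors among them), filters, strands and thresholds. Genes named are the 7, the leading gene of each list and the 3 nearest in level to Mir203, Mir200c and Mir200b. Mir182, Mir183, Mir224, Mir96, Mir449a, Mir449b, Mir449c, the other blood genes, and list genes at 0 or on more than 1 list, were named after their values were seen. The genes and lists were chosen with earlier results of these data known.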

Additional observations from a re-analysis of the deposited data

Results flagged for a closer look

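Mir203 had 9 counts on the opposite strand in replicate 2 and 25 in replicate 1, in a column that no comparison above uses. Both are above the floor set at 3 counts. These reads made up 0.199% of all reads on either strand of Mir203 in replicate 2, with an exact 95% interval of 0.0909 to 0.377, against 0.402% in replicate 1, with an interval of 0.260 to 0.593. Among 146 genes with at least 1000 stranded counts in each library and no microRNA gene of the table on the other strand, this was the highest mean share, and 124 of them had no opposite-strand count. With the minimum at 200 counts, a choice made after the values were seen like the first, Mir203 ranked 3rd of 213 genes.

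The count tables hold no gene opposite Mir203, but RefSeq places the microRNA gene Gm51289 there, on the minus strand of chromosome 12. Its mature products are printed with their seeds in capitals, beside the miR-203 arm that the first of them faces.
miR-203b-3p: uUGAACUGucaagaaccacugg
miR-203b-5p: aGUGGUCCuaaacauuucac
miR-203-5p: aGUGGUUCuugacaguucaaca
miR-203b-3p overlaps miR-203-5p over 20 bases, where they are complementary, and miR-203b-5p overlaps miR-203-3p over 20 bases in the same way. Whether the opposite-strand reads are these products was not tested. Of the other 6 genes, Mir200a had 1 opposite-strand count in replicate 1, and none had any in replicate 2.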

How the results depend on the processing

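The summed level of the 7 genes, 735 ± 9.48 CPM (SD, n = 2), was 346 when scaled to all reads and 811 CPM with counts on either strand, shifts that follow from the denominators. Under total counts, DESeq2 size factors, no filter on low counts or counts on either strand, Mir200b stayed higher and Mir429 lower in replicate 2 past the threshold. The log2 ratio of Mir203 turned to 0.021 by total counts, and that of Mir200c, which passed under no setting, to 0.10 by total counts and 0.010 by DESeq2 size factors. Mir203 stayed lower in replicate 2 past the threshold with DESeq2 size factors (-0.068), no filter (-0.082) and counts on either strand (-0.096). By total counts 150 genes were higher and 93 lower in replicate 2, beside 110 and 129 with TMM. At least 5 counts in both libraries were found for 6 of the 7 genes and at least 20 for 5. Leaving out a library gave 741 and 728 CPM. No paired analysis was possible because there is a single group. Low counts leave wide intervals for Mir141, Mir200a and Mir205.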
